A study of Homo sapiens with 9 samples.

Results

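The activating transcription factor 4 (ATF4) amino acid response and the cytosolic tRNA synthetases were followed in LNCaP cells with and without a deletion of *EPCART*. The genes were a list of 49 symbols of the response, drawn up with earlier results of these data known, and all 49 were found among the 19984 protein-coding genes of the table. They fall into 6 role groups, namely 3 genes for the sensor kinases and a phosphatase subunit, 12 stress factors, 6 enzymes of serine and one-carbon metabolism, 3 enzymes of asparagine and proline synthesis, 6 amino acid transporters and 19 tRNA synthetase genes.

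When amino acids run short or unfolded protein accumulates in the endoplasmic reticulum, kinases such as GCN2 (*EIF2AK4*) and PERK (*EIF2AK3*) phosphorylate the initiation factor eIF2, which slows general translation and favours translation of the *ATF4* mRNA. ATF4 then binds composite elements that join a C/EBP site to an ATF site, and activates genes for amino acid synthesis, amino acid uptake and tRNA charging. Because ATF4 is controlled mainly at translation, its mRNA is an incomplete readout of its activity, and the mRNAs of its targets are commonly read instead.

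LNCaP cells are an established line of human prostate cancer. *EPCART* is a long noncoding RNA, and the del-4 and del-56 clones had lost its promoter with exons 1 and 2 by CRISPR-Cas9, while the WT clone came from the same work and kept the locus. RNA-seq of polyadenylated RNA was made from 3 cultures of each clone, grown for 48 hours in RPMI medium with serum and added glutamine, and the labels give no drug and no withdrawal of amino acids for any group. Each genotype of this comparison is therefore 1 clone, so a difference between clones and an effect of the deletion cannot be told apart within 1 pair, and the 3 WT libraries served as the reference for both. *EPCART* itself was not analysed here.

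Each library had 91074556 to 118877134 reads on genes, the lowest total being that of del-56 replicate 3. The values are normalized counts, so reads are scaled by the size factor of their library, and levels are compared between clones and not between genes. The 9 markers of LNCaP fixed for the check, among them *KLK3*, were expressed in every library, and their summed level was 361556 to 366982 in del-4, 351112 to 360878 in del-56 and 354118 to 371821 in WT. Of the 7 markers of other cells, *PTPRC*, *COL1A2*, *PECAM1*, *KRT5* and *TP63* stayed at a normalized count of 9.66 or below, and the sum of all 7, nearly all of it from *COL1A1* and *VIM*, was 1661 to 1918 in del-4, 1808 to 1962 in del-56 and 1998 to 2119 in WT. Within that sum *VIM* was 548 to 613 in del-4, 540.2 to 643 in del-56 and 979 to 1164 in WT, and *COL1A1* was 1101 to 1359, 1183 to 1328 and 937 to 1019. The part of these markers in the results was not tested, and in bulk RNA a change in the share of cells and one in RNA per cell cannot be told apart.

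The promoters were searched on both strands for the letters TGATGNAA, a common form of the composite ATF4 element. The sequences are RefSeq promoters of build GRCh38.p14, from 250 bases before to 50 bases after a RefSeq start of the gene, and 41 of the 49 genes had an entry. A gene can have several entries, at outer or internal starts (35116 entries for 27305 genes), and a match in any of them was counted. *ALDH1L2*, *LARS1*, *NUPR1*, *PSPH*, *PYCR1*, *SHMT2*, *VARS1* and *YARS1* had none. The letters were found in 15 of the 41 genes (36.6%), and in 4.46% of all 27305 genes of the promoter table. The 49 genes were chosen as genes of the ATF4 response, so these shares are not a test of the element. The 15 genes were *ATF3*, *CEBPG*, *CHAC1*, *ASNS*, *SLC1A4*, *SLC1A5*, *SLC3A2*, *SLC7A1*, *AARS1*, *CARS1*, *GARS1*, *IARS1*, *MARS1*, *NARS1* and *TARS1*. Windows of 60 bases are printed for 6 genes, 5′ to 3′ on the strand of the gene with the match in capitals, because 3 of these genes (*ASNS*, *CHAC1* and *SLC1A5*) are among the 5 that differed most between the deletion clones, *CEBPG* encodes a partner of ATF4, and *ATF3* and *AARS1* were lower than in WT in both clones. TTGCATCA is the element read on the opposite strand.
ASNS: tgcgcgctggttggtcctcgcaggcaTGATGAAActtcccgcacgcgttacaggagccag
CHAC1: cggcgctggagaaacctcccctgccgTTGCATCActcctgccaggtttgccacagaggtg
CEBPG: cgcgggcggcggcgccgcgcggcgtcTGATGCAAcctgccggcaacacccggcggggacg
SLC1A5: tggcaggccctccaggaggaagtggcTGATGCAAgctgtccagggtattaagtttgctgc
ATF3: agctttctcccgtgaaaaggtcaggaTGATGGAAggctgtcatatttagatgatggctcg
AARS1: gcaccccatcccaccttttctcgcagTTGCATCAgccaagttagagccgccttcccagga
The windows lie at chr7:97872443-97872502 (*ASNS*, minus strand), chr15:40953236-40953295 (*CHAC1*, plus strand), chr19:33374045-33374104 (*CEBPG*, plus strand), chr19:46784878-46784937 (*SLC1A5*, minus strand), chr1:212565190-212565249 (*ATF3*, plus strand) and chr16:70289660-70289719 (*AARS1*, minus strand). Their matches begin 68, 209, 42, 97, 191 and 187 bases before the RefSeq start of the entry, in that order. The *SLC1A5* entry is at an internal start, well inside the gene (chr19:46774883-46788594). The matches of *SLC3A2*, *MARS1* and *GARS1* also lie well inside their genes. A match is a run of letters and not a measured binding site. Of the 15 genes with a match, 12 were called higher in del-4 than in del-56, and of the 26 genes with an entry and no match, 13 were. Of all 17447 genes tested, 10.9% were called higher, and these were not split by match. The list was drawn up with earlier results known, and the part of the match in the calls was not tested.

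Each clone was compared with WT and with the other clone by limma on log2 of the normalized count plus 1, and a gene was called at a Benjamini-Hochberg adjusted p under 0.05 over all genes tested. In del-4, where 40.7% of all 17401 genes were called, 27 of the 49 genes were higher than in WT, 9 were lower and 13 were not called, against 20.5% of all genes called higher and 20.2% called lower. In del-56, where 39.7% of 17481 genes were called, 11 were higher than in WT, 19 were lower and 19 were not called, against 19.2% of all genes called higher and 20.5% lower. In the direct comparison of the deletion clones, where 19.9% of 17447 genes were called, 30 genes were higher in del-4 and 2 lower (*KARS1* and *LARS1*), and 17 were not called, against 10.9% of all genes called higher and 9% called lower.

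All genes tested are those whose mean reached 1, and their shares were not matched to the 49 genes for expression level. *ALDH1L2*, the lowest of the 49, had 104 to 201 normalized counts. The part of expression level in the calls and overlaps was not tested. The share of the 49 genes called higher was above that of all genes in del-4 and between the clones. In del-56 the share of the 49 genes called lower was above that of all genes. Their median log2 fold change against WT was 0.13 for del-4 and -0.054 for del-56, and the median difference between the deletion clones was 0.17, where the medians of all genes tested were -0.0028, -0.0011 and -0.0026. No called member had a fold change past 1 on the log2 scale in any comparison, a size that 4.83%, 4.87% and 2.93% of all genes reached. The differences were therefore small in size, from -0.63 to 0.80 in del-4 and from -0.80 to 0.37 in del-56. Rescaling the libraries to the same total gave 22 higher and 12 lower in del-4, 8 higher and 23 lower in del-56, and 27 higher and 3 lower between the clones. The same rescaling took the share of higher calls among all called genes from 50.3% to 32.4% in del-4, from 48.4% to 40.7% in del-56 and from 54.7% to 36.7% between the clones. Without WT replicate 3, higher calls in del-56 numbered 7.

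The libraries of each clone moved together. Relative to the mean of the WT libraries, the median of the 49 log2 ratios was 0.146, 0.149 and 0.141 in the 3 del-4 libraries and -0.0671, -0.0433 and -0.0918 in those of del-56, while the WT libraries lay from -0.0161 to 0.0151. The 3 clones did not overlap in this median. For 37 genes the del-4 and WT libraries did not overlap, 28 higher and 9 lower, where the shares of all genes were 24.8% each and 49.5% together. The del-56 and WT libraries did not overlap for 37 genes either, 14 higher and 23 lower, where the shares were 24% and 24.8%, or 48.7% together. Between the deletion clones there was no overlap for 38 genes, 34 higher in del-4 and 4 lower, where the shares were 17.6% and 17.1%, or 34.7% together.

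**Figure D1:**
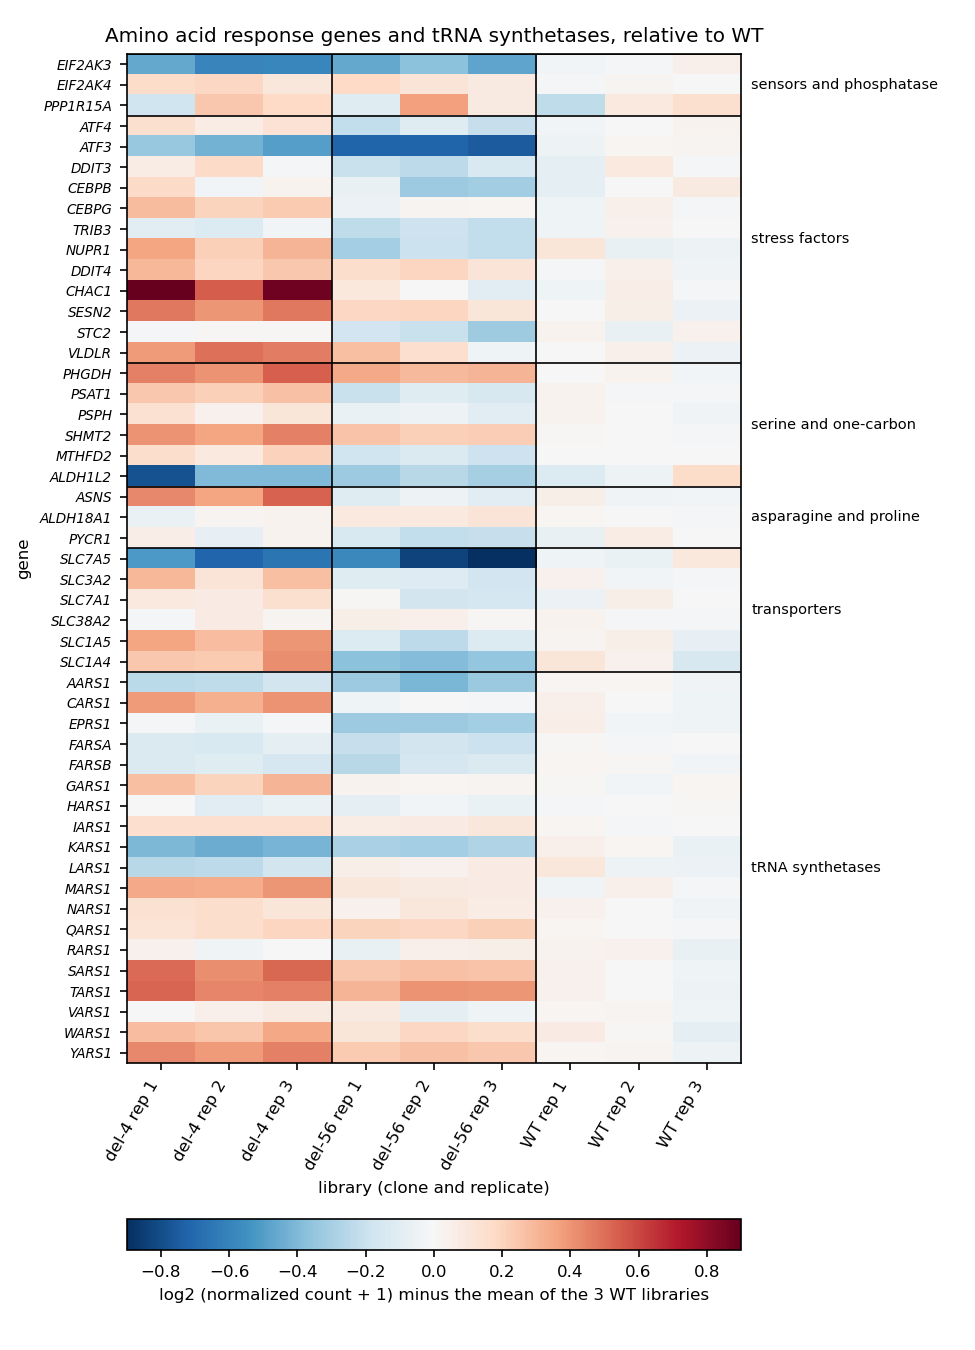
Log2 of the normalized count plus 1 of each of the 49 genes (rows, by role group) in each of the 9 libraries (columns), minus the mean of the 3 WT libraries, from blue (below WT) to red (above WT). The del-4 columns are mostly red, with library medians of 0.141 to 0.149, and the del-56 columns hold both colours, with library medians of -0.0918 to -0.0433.

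The 3 sensor and phosphatase genes were not called between the deletion clones, and both kinases were called against WT in each clone. *EIF2AK3* encodes PERK, the kinase of the endoplasmic reticulum (ENSG00000172071.15, chr2:88556741-88691518, minus strand), and had normalized counts of 2534, 2304 and 2321 in del-4, 2538, 2699.8 and 2511 in del-56 and 3419, 3437 and 3604 in WT. All 6 deletion libraries lay below all 3 WT libraries. Its mRNA changed by -0.55 (SE 0.0518, limma, adjusted p = 1.45e-07) in del-4 and -0.43 (SE 0.0505, limma, adjusted p = 4.88e-06) in del-56 on the log2 scale. *EIF2AK4* encodes GCN2, which senses uncharged tRNA, and its values (ENSG00000128829.12, chr15:39934115-40035591, plus strand) were 13274, 13427 and 12656 in del-4, 13352, 12822 and 12502 in del-56 and 11669, 12012 and 11765 in WT. They were higher than in WT in every deletion library, by 0.15 (SE 0.0359, limma, adjusted p = 0.00245) in del-4 and 0.13 (SE 0.0376, limma, adjusted p = 0.0143) in del-56 on the log2 scale. These calls were lost when the libraries were rescaled to the same total (limma, adjusted p = 0.0929 and 0.0621), and that of del-56 without WT replicate 3 (adjusted p = 0.0519). *PPP1R15A*, the GADD34 subunit that directs phosphatase to eIF2, had 189 to 287 normalized counts over the 9 libraries and was called in no comparison. Between the deletion clones the log2 differences of the 3 genes were -0.11, 0.025 and -0.035, and their 95% intervals, -0.24 to 0.0056, -0.057 to 0.11 and -0.40 to 0.33, included 0.

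Among the 12 stress factors, 11 were higher in del-4 than in del-56 and none was lower, with a median log2 difference of 0.29. Against WT, 7 were higher and 1 lower in del-4 (median 0.18), and 2 were higher and 6 lower in del-56 (median -0.18). Among all genes, 20.5% were called higher and 20.2% lower in del-4, 19.2% and 20.5% in del-56, and 10.9% and 9% between the clones. *ATF4* itself (ENSG00000128272.17, chr22:39519695-39522683, plus strand) had normalized counts of 36257, 34407 and 35804 in del-4, 28127, 30326 and 28449.8 in del-56 and 32187, 32645 and 33506 in WT. Every del-4 library was above every WT library, and every del-56 library was below. Between the deletion clones *ATF4* mRNA was 1.23-fold higher in del-4, a log2 difference of 0.29 (SE 0.0388, limma, adjusted p = 2.55e-05), and in del-56 it was below WT by a log2 fold change of -0.18 (SE 0.0391, limma, adjusted p = 0.00167). The rise in del-4 over WT was smaller, 0.11 (SE 0.0354, limma, adjusted p = 0.0148). That call was lost without del-4 replicate 1 (adjusted p = 0.0661), del-4 replicate 3 (0.071) or WT replicate 2 (0.0546), and with libraries rescaled to the same total (log2 fold change 0.045, limma adjusted p = 0.315) or quantile normalization (0.039, 0.357), whereas the difference between the deletion clones kept its call under every alternative. Reads from the 4 annotated *ATF4* pseudogenes could be exchanged with *ATF4*, depending on the counting.

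*CHAC1*, which encodes an enzyme that degrades glutathione, had the largest difference between the deletion clones of all 49 genes. Its normalized count (ENSG00000128965.13, chr15:40952962-40956512, plus strand) was 3179.8, 2329.6 and 2921 in del-4, 1702, 1597 and 1496 in del-56 and 1550.1, 1659 and 1577 in WT. The lowest del-4 library was well above the highest of the other 6, and del-56 and WT overlapped. The log2 fold change was 0.80 (SE 0.0837, limma, adjusted p = 4.51e-07) in del-4 and 0.0015 (SE 0.0667, limma, adjusted p = 0.99) in del-56 against WT, and 0.80 (SE 0.088, limma, adjusted p = 2.98e-06) between the deletion clones. *NUPR1*, a small chromatin protein of the stress response, was intermediate in WT, with 23701, 21547 and 22973 in del-4, 14982, 16197 and 15896 in del-56 and 20037, 17707 and 17974 in WT (ENSG00000176046.9, chr16:28532708-28539008, minus strand). No del-4, WT and del-56 values overlapped. It was 1.45-fold higher in del-4 than in del-56 (log2 difference 0.53, SE 0.0421, limma, adjusted p = 4.26e-08), higher than in WT in del-4 by 0.29 (SE 0.0463, limma, adjusted p = 5.54e-05) and changed by -0.24 (SE 0.0474, limma, adjusted p = 0.00071) in del-56.

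*ATF3*, a transcription factor induced by ATF4 in stress, went below WT in both clones. Its normalized count (ENSG00000162772.17, chr1:212565334-212620777, plus strand) was 2468, 2331 and 2222 in del-4, 1903, 1904 and 1867 in del-56 and 3036, 3174 and 3189.9 in WT. The 3 clones did not overlap, and del-56 was lowest. Log2 fold changes of *ATF3* were -0.42 (SE 0.0525, limma, adjusted p = 3.93e-06) in del-4 and -0.73 (SE 0.0513, limma, adjusted p = 1.89e-08) in del-56, and del-4 was above del-56 by 0.31 (SE 0.058, limma, adjusted p = 0.000952). *DDIT3*, which encodes the CHOP factor, was called in neither clone against WT, with 1182, 1273 and 1114 in del-4, 985, 957 and 1026 in del-56 and 1068, 1202 and 1121 in WT (ENSG00000175197.13, chr12:57516588-57521737, minus strand). The WT libraries overlapped with those of del-4, and every del-56 library was below all others. Against WT, *DDIT3* was called lower in del-56 after rescaling to the same total (limma, adjusted p = 0.0372) and with edgeR (adjusted p = 0.0483). The log2 difference between the deletion clones was 0.26 (SE 0.0778, limma, adjusted p = 0.0228), and the call was lost without del-4 replicate 1 (adjusted p = 0.0644), del-4 replicate 2 (0.0953) or del-56 replicate 2 (0.0825) and after rescaling to the same total (0.0541). *DDIT3* lies on the opposite strand to the end of *MARS1*, and whether the counting used strand is not given in the sources used here, so reads of the pair may be shared.

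Of the other stress factors, *CEBPG*, a partner of ATF4 in binding, was higher than in WT in del-4 by 0.24 (SE 0.0383, limma, adjusted p = 6.07e-05), and its log2 fold change for del-56 was -0.0030 (SE 0.0404, limma, adjusted p = 0.964). *SESN2*, a leucine sensor that restrains mTORC1, was higher in both clones, by 0.45 in del-4 and 0.17 in del-56, where the call was lost without del-56 replicate 2 (limma, adjusted p = 0.0651) or WT replicate 3 (0.0845) or after rescaling to the same total (0.0532). *DDIT4*, the mTORC1 inhibitor REDD1, was also higher in both, by 0.25 and 0.15, and was the stress factor not called between the deletion clones (0.091, SE 0.0393, limma, adjusted p = 0.118). *VLDLR*, a lipoprotein receptor, was higher than in WT in del-4 (0.45, SE 0.0737, limma, adjusted p = 8.69e-05), and its difference between the deletion clones (0.32, SE 0.0854, limma, adjusted p = 0.0132) was lost without del-4 replicate 2 (adjusted p = 0.052), del-4 replicate 3 (0.0597) or del-56 replicate 3 (0.0822). *CEBPB*, *TRIB3* (a pseudokinase) and *STC2* (a secreted glycoprotein) were lower than in WT in del-56, by -0.24, -0.21 and -0.23 on the log2 scale, and were not called in del-4. After rescaling to the same total, *TRIB3* was called lower in del-4 as well (-0.15, limma, adjusted p = 0.007). The *CEBPB* call was lost without WT replicate 3 (adjusted p = 0.0517). *TRIB3* was higher in del-4 than in del-56 by 0.13 (SE 0.0406, limma, adjusted p = 0.0289), a call that was lost without del-4 replicate 1 (0.064), del-4 replicate 3 (0.171), del-56 replicate 2 (0.0521) or del-56 replicate 3 (0.0941) and after rescaling to the same total (0.0917, adjusted p = 0.125).

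**Figure D2:**
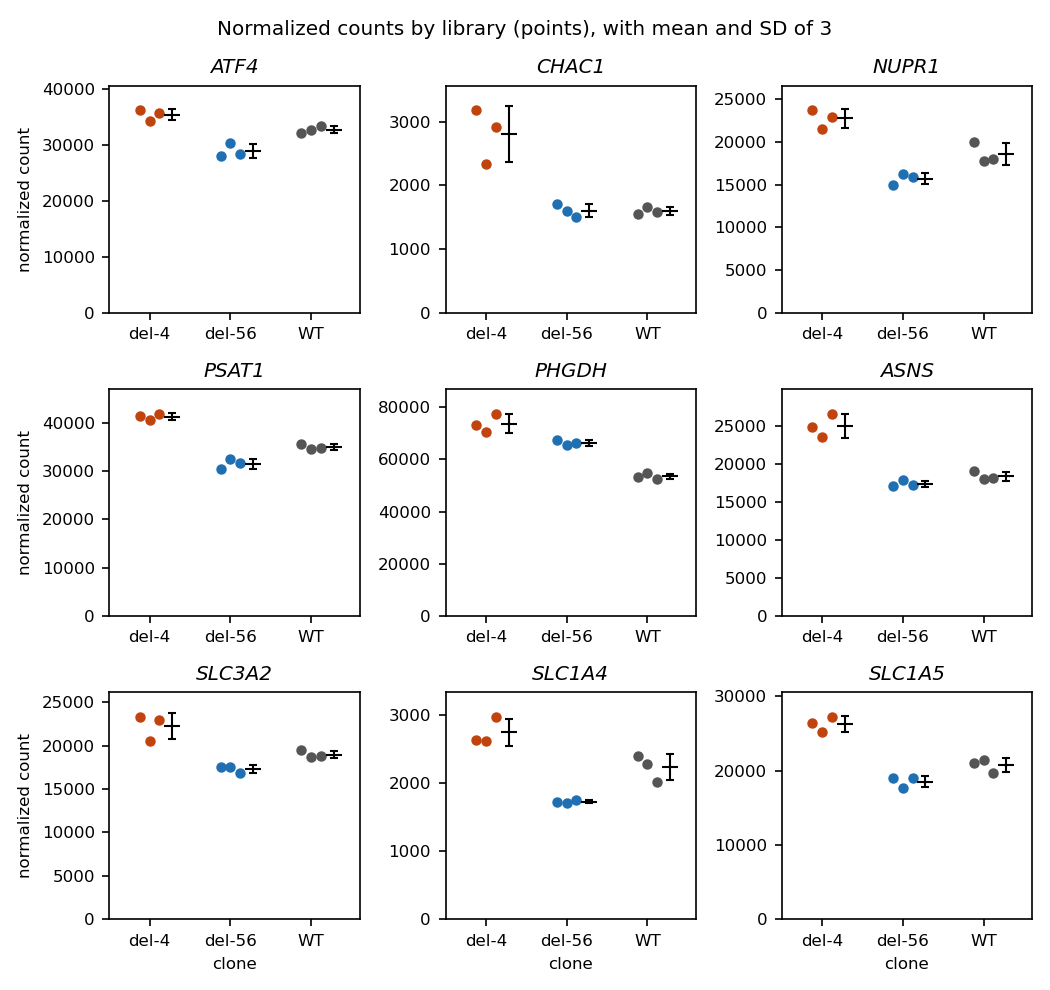
Normalized count (linear axis from 0) of 9 genes in each library (points) of the clones del-4, del-56 and WT, with the mean and SD of 3 cultures as bars. *ATF4*, *NUPR1*, *PSAT1*, *SLC3A2*, *SLC1A4* and *SLC1A5* have WT between the clones, *CHAC1* and *ASNS* stand apart in del-4, and *PHGDH* is above WT in both clones.

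Genes of serine synthesis and mitochondrial one-carbon metabolism were higher in del-4 than in del-56 in 5 of 6 cases and in none lower, with a median log2 difference of 0.17. Against WT, 4 were higher and 1 lower in del-4 (median 0.19), and 2 were higher and 2 lower in del-56 (median -0.11). For all genes, 20.5% were called higher and 20.2% lower in del-4, 19.2% and 20.5% in del-56, and 10.9% and 9% between the clones. *PHGDH*, the first enzyme of serine synthesis, was raised in both clones. Its normalized count (ENSG00000092621.13, chr1:119648411-119744218, plus strand) was 72981, 70516 and 77561 in del-4, 67525, 65378 and 66081 in del-56 and 53178, 54662 and 52415 in WT. All 6 deletion libraries lay above the WT libraries, and the del-4 libraries lay above those of del-56. The log2 fold change was 0.46 (SE 0.0406, limma, adjusted p = 5.45e-08) in del-4 and 0.31 (SE 0.0381, limma, adjusted p = 7.68e-06) in del-56. The difference between the deletion clones, 0.15 (SE 0.0411, limma, adjusted p = 0.0144), was lost without del-4 replicate 3 (adjusted p = 0.131), del-56 replicate 2 (0.0688) or del-56 replicate 3 (0.0644) and with quantile normalization (0.379).

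*PSAT1*, the aminotransferase of the pathway, was higher than in WT in del-4 (0.24, SE 0.0343, limma, adjusted p = 2.05e-05) and lower in del-56 (-0.15, SE 0.0378, limma, adjusted p = 0.00456), and 1.31-fold higher in del-4 than in del-56. *PSPH*, the phosphatase that completes serine, was called in neither clone against WT (log2 fold changes of 0.094 and -0.069) and differed between the deletion clones by 0.16 (SE 0.0386, limma, adjusted p = 0.00571). Against WT it was called higher in del-4 with DESeq2 (adjusted p = 0.0482) and lower in del-56 after rescaling to the same total (limma, adjusted p = 0.0472). *SHMT2*, which turns serine into glycine in mitochondria, was higher than in WT in del-4 by 0.40 and in del-56 by 0.23. *MTHFD2*, the mitochondrial folate enzyme downstream of it, exceeded WT in del-4 (0.15) and was below it in del-56 (-0.16), and the del-4 call was lost after rescaling to the same total (limma, adjusted p = 0.0756). *PSAT1*, *PSPH* and *MTHFD2* have 4, 1 and 7 annotated pseudogenes, which can share their reads.

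*ALDH1L2*, a mitochondrial formyl-folate dehydrogenase, had the fewest reads of the 49 genes. Its normalized counts were 104, 135 and 136 in del-4, 142, 151 and 146 in del-56 and 164, 174 and 201 in WT (ENSG00000136010.14, chr12:105019784-105107643, minus strand). Each deletion library was below each WT library. The log2 fold change was -0.53 (SE 0.192, limma, adjusted p = 0.0358) in del-4 and -0.29 (SE 0.176, limma, adjusted p = 0.212) in del-56. The call in del-4 was lost without del-4 replicate 1 (adjusted p = 0.14), WT replicate 2 (0.0717) or WT replicate 3 (0.138), with no filter (0.0532) and with quantile normalization (0.0992).

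*ASNS*, which makes asparagine from aspartate and glutamine and is a standard marker of ATF4 activity, was called higher in del-4 and not called in del-56. Its normalized count (ENSG00000070669.17, chr7:97851677-97872542, minus strand) was 24869, 23519 and 26649.9 in del-4, 17076, 17858 and 17187 in del-56 and 19082, 18045 and 18098 in WT. The del-4 libraries lay above all others, and the del-56 libraries lay just below those of WT. The log2 fold change was 0.44 (SE 0.0427, limma, adjusted p = 1.95e-07) in del-4 and -0.083 (SE 0.0377, limma, adjusted p = 0.0927) in del-56. After rescaling to the same total, *ASNS* was called lower in del-56 (-0.11, limma, adjusted p = 0.0226). Its level in del-4 was 1.44-fold above del-56 (0.52, SE 0.043, limma, adjusted p = 7.34e-08). Reads of *ASNS* can be shared with its 4 annotated pseudogenes. *PYCR1*, the last enzyme of proline synthesis, was lower in del-56, with 36756, 33436 and 36064 in del-4, 32148, 30276 and 30481 in del-56 and 33734, 36855 and 35288 in WT (ENSG00000183010.17, chr17:81932384-81942412, minus strand). The del-4 and WT libraries overlapped. Its log2 fold change was -0.19 (SE 0.0414, limma, adjusted p = 0.00176) in del-56 and 0.0049 (SE 0.0422, limma, adjusted p = 0.945) in del-4, a value that turned negative under rescaling or quantile normalization, and the deletion clones differed by 0.19 (SE 0.0413, limma, adjusted p = 0.00261). *ALDH18A1*, the enzyme that opens the proline pathway, was higher than in WT in del-56 by 0.095 (SE 0.0345, limma, adjusted p = 0.0385), while its value for del-4 was -0.0019. This call ended when del-56 replicate 2 or 3 was left out (limma, adjusted p = 0.0763 and 0.138), likewise WT replicate 2 or 3 (0.1 and 0.123), with the replicate number as a block (0.108) and after rescaling (0.135).

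Of the 6 amino acid transporters, 4 were higher in del-4 than in del-56 and none was lower, with a median log2 difference of 0.28. Against WT, 4 were higher and 1 lower in del-4 (median 0.17), and none was higher and 4 were lower in del-56 (median -0.15). Shares of all genes were 20.5% higher and 20.2% lower in del-4, 19.2% and 20.5% in del-56, and 10.9% and 9% between the clones. *SLC1A4*, a carrier of alanine, serine and cysteine, had the largest clone difference in this group. Its normalized count (ENSG00000115902.11, chr2:64988477-65023865, plus strand) was 2639, 2630.4 and 2981 in del-4, 1731, 1705 and 1752 in del-56 and 2408, 2289 and 2023 in WT. WT lay between the deletion clones with no overlap. The log2 difference between the deletion clones was 0.67 (SE 0.0606, limma, adjusted p = 2.91e-07), from 0.30 (SE 0.0667, limma, adjusted p = 0.00152) in del-4 and -0.37 (SE 0.0663, limma, adjusted p = 0.00033) in del-56. *SLC1A5*, the glutamine carrier ASCT2, showed the same order, with 26426, 25146 and 27259 in del-4, 19010.1, 17606 and 18983 in del-56 and 21056, 21454 and 19664 in WT (ENSG00000105281.12, chr19:46774883-46788594, minus strand). Again the clones did not overlap. It was 1.42-fold higher in del-4 than in del-56 (0.50, SE 0.0411, limma, adjusted p = 7.01e-08), and the fold changes against WT were 0.34 (SE 0.0405, limma, adjusted p = 2.14e-06) in del-4 and -0.16 (SE 0.043, limma, adjusted p = 0.00702) in del-56. The call in del-56 was lost without del-56 replicate 2 (adjusted p = 0.0501) or WT replicate 2 (0.0526).

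The light and heavy chains of the leucine transporter had opposite signs in del-4. *SLC7A5* encodes the light chain LAT1, and its normalized count (ENSG00000103257.9, chr16:87830023-87869507, minus strand) was 1043, 906 and 942 in del-4, 998, 834 and 757 in del-56 and 1453, 1430.4 and 1591 in WT. All deletion libraries were below WT, and the deletion clones overlapped. Reads of *SLC7A5* can be shared with its 2 annotated pseudogenes. The log2 fold change was -0.63 (SE 0.0757, limma, adjusted p = 2.6e-06) in del-4 and -0.80 (SE 0.0939, limma, adjusted p = 5.42e-06) in del-56, the largest falls of all 49 genes, and the difference between the deletion clones was 0.17 (SE 0.1, limma, adjusted p = 0.28). *SLC3A2*, the heavy chain it pairs with, was higher than in WT in del-4 (0.23, SE 0.0432, limma, adjusted p = 0.00032) and lower in del-56 (-0.13, SE 0.0365, limma, adjusted p = 0.00904), where the call was lost without del-56 replicate 3 (adjusted p = 0.0621). *SLC7A1*, the carrier of arginine and lysine, was higher in del-4 than in del-56 by 0.20 (SE 0.0445, limma, adjusted p = 0.0031). Its call against WT in del-4 (0.10, SE 0.0369, limma, adjusted p = 0.0364) was lost without del-4 replicate 1 (0.0628), del-4 replicate 3 (0.175), WT replicate 1 (0.116) or WT replicate 3 (0.0984). It was also lost after rescaling to the same total (log2 fold change 0.032, limma, adjusted p = 0.542), with quantile normalization (0.065, adjusted p = 0.161) and in 1 fit of all 9 libraries (adjusted p = 0.0815). *SLC38A2*, the carrier SNAT2, ranged from 28755.5 to 30624.5 over the 9 libraries, overlapped in every comparison and was not called.

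The tRNA synthetases moved less uniformly. Between the deletion clones, 8 of 19 were higher in del-4, 2 were lower and 9 were not called, with a median log2 difference of 0.071. Against WT, 10 were higher and 5 lower in del-4 (median 0.13). In del-56, 5 were higher and 5 lower (median 0.022, or -0.0069 after rescaling to the same total). Of all genes, 20.5% were called higher and 20.2% lower in del-4, 19.2% and 20.5% in del-56, and 10.9% and 9% between the clones. In del-56 the synthetase counts lie not far above those shares. *TARS1* and *SARS1*, which charge threonine and serine tRNA, were higher in both clones. The values of *TARS1* (ENSG00000113407.14, chr5:33440696-33468091, plus strand) were 44972, 42337 and 42703 in del-4, 38520.2, 41405 and 41219.6 in del-56 and 32133, 31302 and 30289 in WT. The deletion libraries lay above WT, and the difference between the deletion clones, 0.10 (SE 0.0398, limma, adjusted p = 0.0829), was not called. Against WT, *TARS1* was higher by 0.47 (SE 0.0372, limma, adjusted p = 1.42e-08) in del-4 and 0.37 (SE 0.0404, limma, adjusted p = 2.44e-06) in del-56 on the log2 scale. *SARS1* (ENSG00000031698.13, chr1:109213918-109238182, plus strand) had 33074, 31024 and 33081 in del-4, 27406, 27817 and 27663 in del-56 and 23791, 23182 and 22566 in WT. The 3 clones did not overlap, with del-4 highest. Its log2 fold change was 0.48 (SE 0.0371, limma, adjusted p = 1e-08) in del-4 and 0.25 (SE 0.0357, limma, adjusted p = 3.41e-05) in del-56, and the deletion clones differed by 0.23 (SE 0.0367, limma, adjusted p = 0.000198).

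Besides *TARS1* and *SARS1*, the synthetases higher in both clones were *YARS1* (tyrosine, 0.42 in del-4 and 0.25 in del-56), *WARS1* (tryptophan, 0.29 and 0.15) and *QARS1* (glutamine, 0.16 and 0.20). The *WARS1* call in del-56 was lost without WT replicate 3 (limma, adjusted p = 0.0711), and its difference between the deletion clones, 0.14 (SE 0.0385, limma, adjusted p = 0.0175), without del-4 replicate 3 (0.128) or del-56 replicate 3 (0.0565), after rescaling to the same total (0.0823) and with quantile normalization (0.0688). Another 5 were higher than in WT in del-4 and not called in del-56, namely *CARS1* (cysteine, 0.37 and -0.015), *MARS1* (methionine, 0.36 and 0.086), *GARS1* (glycine, 0.26 and 0.022), *IARS1* (isoleucine, 0.15 and 0.082) and *NARS1* (asparagine, 0.13 and 0.071). The *NARS1* call was lost after rescaling to the same total (0.065, limma, adjusted p = 0.127). Of the 5, the first 3 differed between the deletion clones, by 0.39, 0.27 and 0.24 (limma, adjusted p = 8.93e-07, 1.94e-05 and 0.00015), while the differences of *IARS1* and *NARS1* were 0.068 (SE 0.0338, limma, adjusted p = 0.178) and 0.063 (SE 0.0353, limma, adjusted p = 0.244).

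The synthetase genes lower than in WT in both clones were *KARS1* (lysine, -0.42 in del-4 and -0.29 in del-56), *AARS1* (alanine, -0.21 and -0.36) and both subunits of the phenylalanine enzyme, *FARSA* (-0.12 and -0.19) and *FARSB* (-0.13 and -0.18). *LARS1* (leucine) was lower in del-4 (-0.22, SE 0.0422, limma, adjusted p = 0.000447) and not called in del-56 (0.054, SE 0.0427, limma, adjusted p = 0.346), and it was also below del-56 in del-4, with a log2 difference of -0.27 (SE 0.0358, limma, adjusted p = 2.58e-05). *KARS1*, which had the same order of the deletion clones (-0.13, SE 0.0343, limma, adjusted p = 0.0104), lost that call without del-4 replicate 3 (adjusted p = 0.0518) or del-56 replicate 3 (0.0609). *AARS1* had the opposite order, 0.15 (SE 0.0375, limma, adjusted p = 0.0103), a call lost without del-4 replicate 3 (0.0884) or del-56 replicate 2 (0.0725) and with quantile normalization (log2 difference 0.093, adjusted p = 0.0826). *EPRS1* (glutamate and proline) was lower than in WT in del-56 (-0.32, SE 0.0389, limma, adjusted p = 7.62e-06) and not called in del-4 (-0.029). In del-4 it was called lower after rescaling to the same total (-0.098, limma, adjusted p = 0.0213) and with quantile normalization (-0.10, adjusted p = 0.0108). *HARS1*, *RARS1* and *VARS1*, for histidine, arginine and valine, were called in no main comparison, with log2 fold changes between -0.054 and 0.060. After rescaling to the same total, *HARS1* was called lower in del-4 than in WT (-0.12, limma, adjusted p = 0.0113). Without del-56 replicate 1, *VARS1* was called higher in del-4 than in del-56 (0.11, limma, adjusted p = 0.0447). Annotated pseudogenes can share reads with *KARS1* (3), *CARS1* (2) and, with 1 each, *AARS1*, *FARSB*, *GARS1*, *NARS1*, *RARS1* and *WARS1*.

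**Figure D3:**
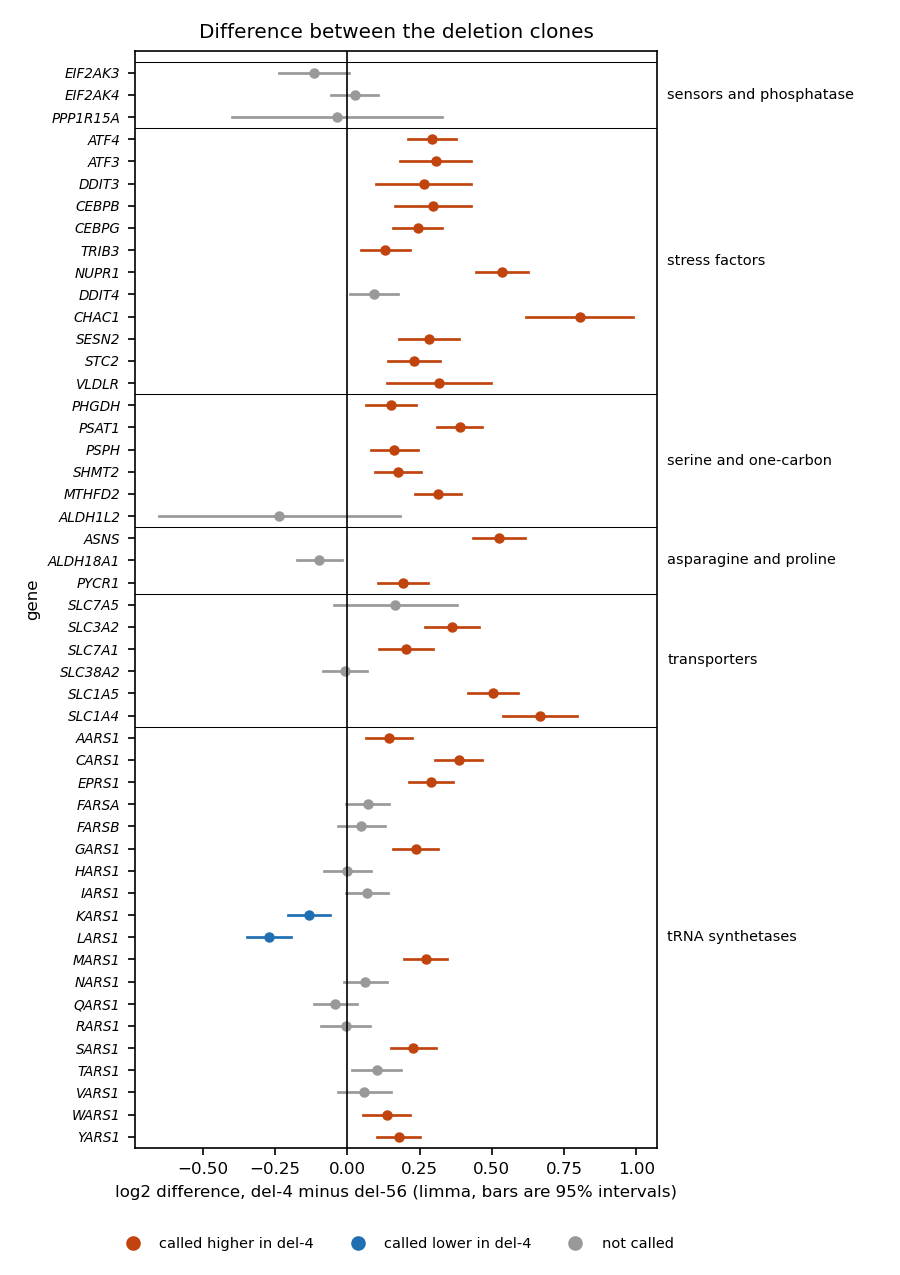
Log2 difference between the deletion clones, del-4 minus del-56, for the 49 genes by role group, as points with 95% intervals from limma. Orange genes (30) were called higher in del-4, blue genes (*KARS1* and *LARS1*) lower and 17 grey genes were not called.

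Read over both contrasts with the shared WT libraries, 7 genes exceeded WT in del-4 and were below it in del-56, namely *ATF4*, *NUPR1*, *PSAT1*, *MTHFD2*, *SLC3A2*, *SLC1A4* and *SLC1A5*. No gene of the list had the reverse pattern. The shares of all genes with either pattern were not counted, so these counts have no background beside them. In both clones 10 were higher (*EIF2AK4*, *DDIT4*, *SESN2*, *PHGDH*, *SHMT2*, *QARS1*, *SARS1*, *TARS1*, *WARS1* and *YARS1*), where 13.2% of 17191 genes tested in both were. In both clones 7 were lower (*EIF2AK3*, *ATF3*, *SLC7A5*, *AARS1*, *FARSA*, *FARSB* and *KARS1*), where 14% of those genes were. Of the remaining 25 genes, 10 were higher in del-4 and not called in del-56, 2 were lower in del-4 and not called in del-56, 1 was higher and 5 were lower in del-56 and not called in del-4, and 7 were called in neither.

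Genes outside the list gave the surroundings of the pathway. Of all genes, 20.5% were called higher and 20.2% lower in del-4, 19.2% and 20.5% in del-56, and 10.9% and 9% between the clones. Of 15 other known ATF4 targets, *SLC7A3* stood at 0 in every library and 14 were tested. Of these, 11 were higher in del-4 than in del-56 and none was lower, with a median log2 difference of 0.28. Against WT, 9 were higher and 1 lower in del-4 (median 0.14), and 2 were higher and 6 lower in del-56 (median -0.092). The largest differences between the deletion clones were those of *CTH*, an enzyme of cysteine synthesis (0.91, SE 0.0799, limma, adjusted p = 1.76e-07), *SLC7A11*, the cystine carrier (0.81, SE 0.0561, limma, adjusted p = 7.1e-09), *SLC6A9*, a glycine carrier (0.62, SE 0.0532, limma, adjusted p = 1.4e-07), and *GDF15*, a stress hormone (0.55, SE 0.0648, limma, adjusted p = 6.76e-06). Against WT, *SLC7A11* was higher in del-4 by 0.60 and lower in del-56 by a log2 fold change of -0.21, and *CTH* was higher by 0.95 in del-4 and not called in del-56 (0.039). *GDF15* and *ADM2* were lower in del-56 (-0.46 and -0.42) and not called in del-4 (0.088 and 0.049).

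Of 17 mitochondrial tRNA synthetases, the counts against WT were 3 higher and 9 lower for del-4 and 3 higher and 7 lower for del-56, and 1, *VARS2*, was called between the deletion clones, higher in del-4 (0.22). Of 5 other genes of the cytosolic synthetases and their complex, 1 was higher and 3 were lower in each clone, and none was called between the deletion clones. In the list of other eIF2 kinases and eIF2 genes, 5 of 10 were higher and 1 lower in del-4, against 3 and 0 in del-56. In the direct comparison del-4 exceeded del-56 for the eIF2 subunits *EIF2S1* and *EIF2S3* (0.19 and 0.20) and was below it for *IMPACT*, an inhibitor of GCN2 activation (-0.18).

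Chaperones and other genes of the ATF6 and XBP1 branches, which answer unfolded protein, were lower than in WT in 8 of 15 cases in del-4 and 10 of 15 in del-56, and higher in 0 and 1. The shares of all genes were 20.2% and 20.5% called lower, and 20.5% and 19.2% called higher. *XBP1* had log2 fold changes of -0.39 and -0.39, *HERPUD1* of -0.40 and -0.57, *SDF2L1* of -0.59 and -0.52, and *CRELD2* of -0.44 and -0.58. *HERPUD1* lies on chromosome 16, whose tested genes had medians of -0.34 and -0.31. *XBP1*, *SDF2L1* and *CRELD2* lie on chromosome 22, with medians of -0.056 and -0.072. The part of the chromosomes in these changes was not tested. Between the deletion clones the median of these 15 genes was 0.020, with 3 higher and 1 lower in del-4. Of 13 other enzymes of amino acid and folate metabolism, 5 were higher and 6 lower in del-4, 3 were higher and 5 lower in del-56, and 3 were higher in del-4 than in del-56. Among these was *ASS1*, which makes argininosuccinate for arginine synthesis (0.82 in del-4, 0.36 in del-56 and 0.46, SE 0.0408, limma, adjusted p = 2.41e-07 between them).

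**Figure D4:**
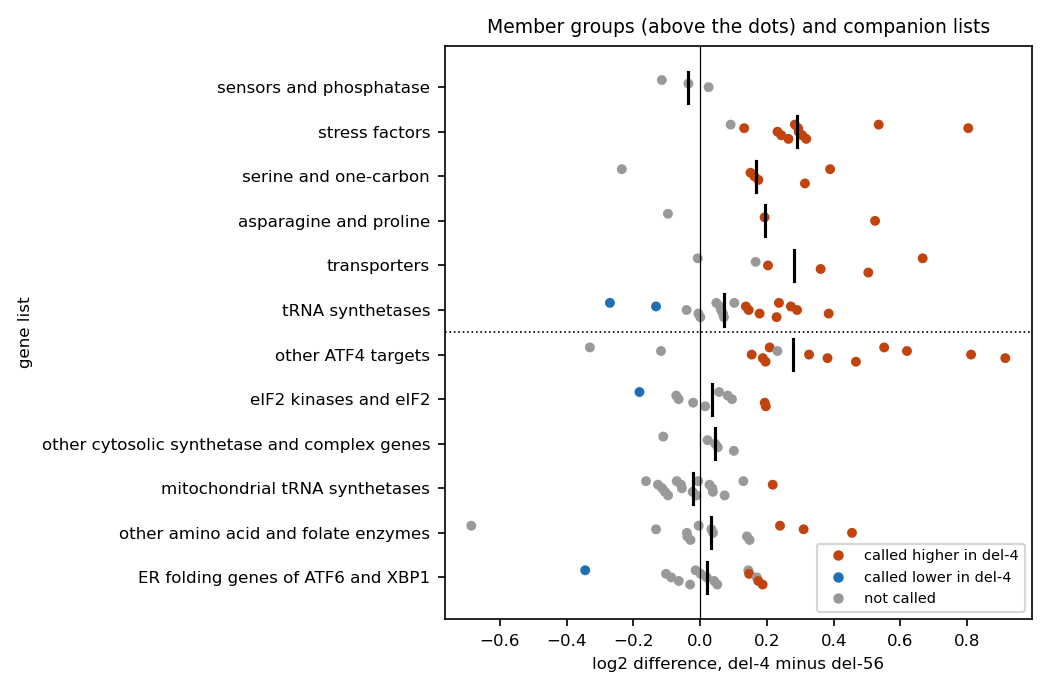
Log2 difference, del-4 minus del-56, of each gene of the 6 role groups (above the dotted line) and of 6 companion lists, with black bars at the medians. The medians of the stress factors (0.29), transporters (0.28) and other ATF4 targets (0.28) lie to the right of 0. In these lists 0, 1 and 2 genes lie below 0. The medians of the mitochondrial synthetases (-0.023) and the ER folding genes (0.020) are near 0.

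The nearest genes on the chromosome had moved in the same direction around some of these genes. Against WT, the median over all tested genes of chromosome 16 was -0.34 on the log2 scale for del-4 and -0.31 for del-56, and that of chromosome 1 was 0.11 and 0.12. Chromosome 2 had medians of -0.15 and -0.16. The median of the 50 tested genes nearest to *SLC7A5* was -0.47 for del-4 and -0.32 for del-56, that around *KARS1* was -0.38 and -0.26, and that around *AARS1* was -0.30 and -0.27. *SARS1*, *YARS1* and *SESN2* on chromosome 1 had neighbours at 0.22, 0.22 and 0.21 in del-4 and at 0.23, 0.25 and 0.18 in del-56. On chromosome 2, *FARSB* (-0.13 for del-4, -0.18 for del-56) had neighbours at -0.17 in each clone, *MTHFD2* (0.15 and -0.16) at -0.13 and -0.15, *SLC1A4* (0.30 and -0.37) at -0.19 and -0.18, and *EIF2AK3* (-0.55 and -0.43) at -0.094 and -0.078. The part of these neighbourhoods in the calls against WT was not tested. *NUPR1* was above its chromosome 16 neighbours in del-4 (0.29 where their median was -0.27) and near them in del-56 (-0.24 and -0.26). *PHGDH*, *TARS1*, *ASNS* and *CHAC1* had neighbours at 0.014, -0.044, -0.0061 and 0.041 in del-4. Between the deletion clones, the neighbours of the 5 genes that differed by more than 0.5 had medians of -0.020 (*CHAC1*), -0.024 (*SLC1A4*), -0.014 (*NUPR1*), 0.029 (*ASNS*) and 0.040 (*SLC1A5*).

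**Figure D5:**
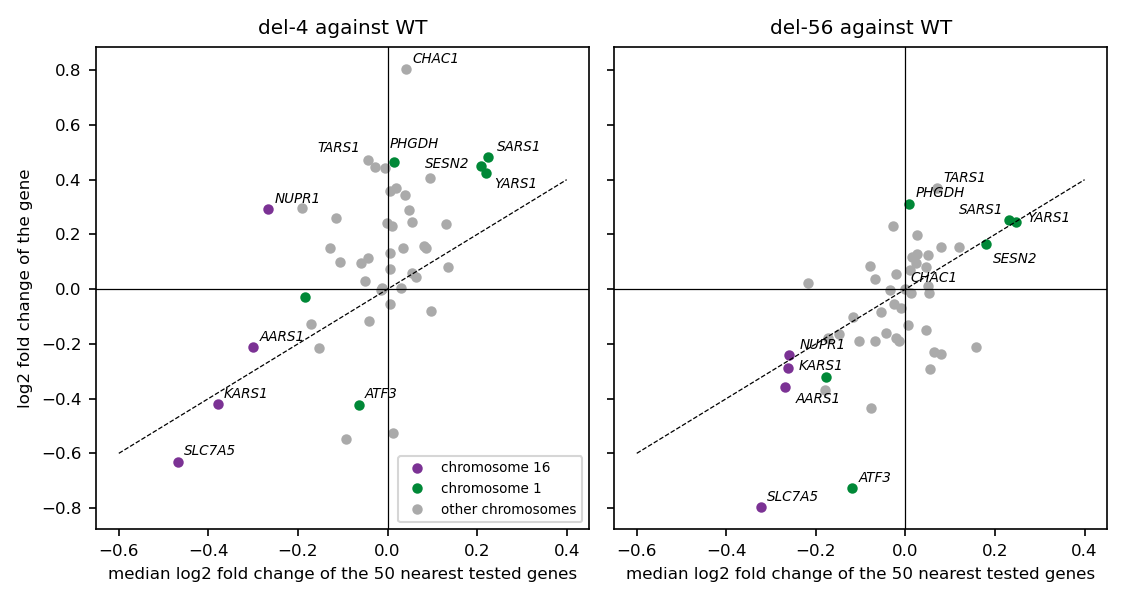
Log2 fold change of each of the 49 genes (vertical axis) against the median log2 fold change of the 50 tested genes nearest to it on its chromosome (horizontal axis), for del-4 and del-56 against WT, with the dashed line where both are equal. *SLC7A5*, *KARS1* and *AARS1* on chromosome 16 have neighbours well below 0 in both clones, whereas *CHAC1*, *PHGDH* and *TARS1* have neighbours between -0.044 and 0.071.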

How the data were processed

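Polyadenylated RNA of 3 cultures each of the clones del-4, del-56 and WT was sequenced from strand-specific libraries, with 1 library per culture and no pairing of cultures. Per the study's methods and the submitters' processing notes, reads were checked with FastQC 0.11.8, trimmed with Trim Galore 0.6.5, aligned to GRCh38 with STAR 2.71a, indexed with SAMtools 1.8 and counted on protein-coding genes of GENCODE 38 with bedtools 2.27.1, whose strand setting is not given in the sources used here. The authors divided the reads of each library by 1 size factor, so the deposited signal is a normalized count. In each library 100% of the values were whole multiples of 1 step within 0.0001 of a read. Reads on genes were 91074556 to 118877134 per library, and 83.8% of values of 1 to 20 reads were even, so that values rest on fewer independent fragments than reads. Counting error was therefore not put as an interval, and errors are the spread between cultures.

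The study used DESeq2 on counts, but the table is normalized, so limma 3.58.1 in R 4.3.3 was run with a variance trend on log2 of the normalized count plus a pseudocount of 1, on the 6 libraries of each pair of clones and on genes whose mean reached 1. Fold changes are on that scale. The p-values were adjusted by the Benjamini-Hochberg method over all genes tested, with a threshold of 0.05. They measure the spread between cultures of 1 clone, not between clones. No pair of replicates agreed within sampling noise, since the median ratio of their chi-square to its expectation was 4.81 to 9.58 with each read taken as independent, an expectation that paired reads understate.

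The members and all lists were chosen with earlier results of these data known, so their counts are set beside those of all genes and no list was tested. Values in every library are given for *ATF4*, *DDIT3*, *ASNS* and *PHGDH*, for the 2 genes of each role group with the largest absolute mean log2 fold change of both clones among those called, and for genes called between the deletion clones with a log2 difference over 0.5. Other genes are named by role group, and examples from the companion lists were picked after their values were seen. Symbols and positions came from GENCODE 44 for 19905 of 19984 identifiers, and promoters from RefSeq. Alternatives were pseudocounts of 0.5 and 5, no filter or a minimum mean of 10, libraries rescaled to an equal total or quantile normalized, a single fit with all 9 libraries, a block for the replicate number, edgeR 4.0.16 and DESeq2 1.42.0 on the recovered reads, an unadjusted p, and leaving out each library in turn. The limma fit was tested on simulated independent counts for each deletion clone against WT. The direct comparison of the deletion clones and the remaining steps were not tested in this way. Other steps ran in Python 3.11.15. No expression column lacked a sample. *EPCART* and the study's protein and tumor data were not analysed here. Single values of some marker and companion genes are not reported here.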

Additional observations from a re-analysis of the deposited data

Results flagged for a closer look

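The genes below were picked out because del-4 and del-56 differed under the same contrast with WT, by the direct limma test of one deletion clone against the other at an adjusted p under 0.05. With 3 libraries a clone, no library was tested for standing apart from its group. The 32 genes are given by their log2 difference, del-4 minus del-56.

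Among the stress factors the differences were 0.80 for *CHAC1*, 0.53 for *NUPR1*, 0.32 for *VLDLR*, 0.31 for *ATF3*, 0.30 for *CEBPB*, 0.29 for *ATF4*, 0.28 for *SESN2*, 0.26 for *DDIT3*, 0.24 for *CEBPG*, 0.23 for *STC2* and 0.13 for *TRIB3*. In serine and one-carbon metabolism they were 0.39 for *PSAT1*, 0.31 for *MTHFD2*, 0.17 for *SHMT2*, 0.16 for *PSPH* and 0.15 for *PHGDH*. *ASNS* had 0.52 and *PYCR1* 0.19. The transporters gave 0.67 for *SLC1A4*, 0.50 for *SLC1A5*, 0.36 for *SLC3A2* and 0.20 for *SLC7A1*. The synthetases gave 0.39 for *CARS1*, 0.29 for *EPRS1*, 0.27 for *MARS1*, 0.24 for *GARS1*, 0.23 for *SARS1*, 0.18 for *YARS1*, 0.15 for *AARS1*, 0.14 for *WARS1*, -0.13 for *KARS1* and -0.27 for *LARS1*. For 7 of them (*ATF4*, *NUPR1*, *PSAT1*, *MTHFD2*, *SLC3A2*, *SLC1A4* and *SLC1A5*) both clones were called against WT, in opposite directions. The share of all genes with that pattern was not counted.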

How the results depend on the processing

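Counts of members called changed by more than 1.5 times for 2 of the 6 counts, both when 1 library was left out. With 1 library left out, higher calls in del-56 ranged from 7 (without WT replicate 3) to 12, and lower calls in del-4 against del-56 from 1 (without del-4 replicate 3 or del-56 replicate 3) to 2. Over the other alternatives higher calls in del-56 numbered 8 to 13 and lower calls between the clones 2 to 3. The replicate number did not pair the libraries, since correlations of same-numbered deviations from the clone means lay between -0.0528 and 0.0632. With the replicate block the counts were 27 higher and 9 lower in del-4, 10 and 19 in del-56, and 30 and 2 between the clones. Of the called members, 30 of 36 in del-4, 23 of 30 in del-56 and 25 of 32 between the clones kept direction and call under every alternative. Each call lost is given in the report beside its gene. For 15 results not called in the main comparison, a call was gained under at least 1 alternative. In del-4 these were *EPRS1*, *HARS1*, *PSPH* and *TRIB3*. In del-56 they were *ASNS*, *DDIT3*, *IARS1*, *LARS1*, *MARS1*, *PSPH* and *SLC7A1*. Between the clones they were *ALDH18A1*, *DDIT4*, *TARS1* and *VARS1*.

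A sign turned only for members not called in the main comparison. In del-4 against WT, the log2 fold change after rescaling to the same total was -0.0093 for *CEBPB*, -0.064 for *PYCR1*, -0.065 for *RARS1*, -0.041 for *SLC38A2*, -0.068 for *STC2* and -0.025 for *VARS1*. With quantile normalization it was -0.077 for *PYCR1*, -0.021 for *RARS1*, -0.019 for *SLC38A2* and -0.0040 for *STC2*, and with edgeR -0.00040 for *STC2*. In del-56 against WT, rescaling gave -0.027 for *CHAC1*, -0.0069 for *GARS1* and -0.019 for *RARS1*. Between the clones, rescaling gave -0.015 for *EIF2AK4* and -0.040 for *HARS1*, quantile normalization -0.028 and edgeR -0.0018 for *HARS1*. The cause was not tested.

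With 1 library left out, the log2 fold change in del-4 against WT lay from -0.019 to 0.027 for *ALDH18A1*, -0.033 to 0.21 for *PPP1R15A*, -0.027 to 0.046 for *PYCR1*, -0.029 to 0.023 for *RARS1* and -0.033 to 0.019 for *STC2*. In del-56 against WT it lay from -0.036 to 0.0076 for *CARS1*, -0.021 to 0.022 for *CEBPG*, -0.045 to 0.048 for *CHAC1*, -0.011 to 0.23 for *PPP1R15A*, -0.024 to 0.049 for *RARS1* and -0.063 to 0.022 for *VARS1*. Between the clones it lay from -0.026 to 0.024 for *HARS1*, -0.15 to 0.095 for *PPP1R15A*, -0.044 to 0.015 for *RARS1* and -0.030 to 0.012 for *SLC38A2*.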
